A study of Mus musculus with 24 samples.

Results

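The 9 genes described here encode secreted antagonists of bone morphogenetic proteins (BMPs) and activins: gremlin 1 (Grem1), noggin (Nog), chordin-like 1 (Chrdl1), twisted gastrulation (Twsg1), follistatin (Fst), follistatin-like 3 (Fstl3), follistatin-like 1 (Fstl1), sclerostin (Sost) and sclerostin domain-containing 1 (Sostdc1). They were chosen by gene name, and all 9 were found among the 32561 genes of the deposited table. Polyadenylated RNA was sequenced from whole aortas of 24 mice of the 129S1/SvlmJ strain, aged 44 to 53 days, and each of the 6 groups held 4 animals. They comprised Bmp2∆UCS/∆UCS Kl/Kl males and Bmp2∆UCS/∆UCS control males, Bmp2+/+ Kl/Kl males and Bmp2+/+ control males, and Bmp2+/+ Kl/Kl females and Bmp2+/+ control females. Kl/Kl animals were homozygous for a recessive Klotho mutation and had renal failure, while control animals were heterozygous or wild type for Klotho and had healthy kidneys. Both mutations are carried in every cell, so no promoter or Cre restricts them to the vessel wall. ∆UCS is written here as the labels write it, and ∆UCS females were not analysed here.

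BMPs and activins are secreted dimers that signal through paired serine/threonine kinase receptors to SMAD transcription factors. Secreted antagonists bind these ligands outside the cell and keep them from their receptors, and many of the antagonists are themselves induced by BMP signalling. In the artery wall, BMP2 is known for its link to the mineralisation of smooth muscle, and Klotho-deficient mice are known for calcified arteries. Sclerostin, made mainly by osteocytes, acts chiefly on the Wnt co-receptors LRP5 and LRP6.

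In 2 libraries the genes that mark sex went against the labelled sex, whereas they matched in the other 22. These were Bmp2+/+ Kl/Kl male replicate 1 and Bmp2+/+ Kl/Kl female replicate 2. Osteopontin (Spp1), a secreted phosphoprotein of bone and macrophages, was at 0.459 TPM in that male library and at 0.347 TPM in that female library, against 35.3 to 286 TPM in the 10 other Kl/Kl libraries and 0.199 to 5.54 TPM in the 12 control libraries. Results are therefore given without these 2 libraries, and beside them with all 24 as labelled. Estimated depth was 20613000 to 61087000 reads per library. Mitochondrial genes made up 40.2% to 61.2% of the summed TPM of a library, which is scaled to gene span and is not a share of reads. This share moved with the Klotho groups: it was 40.9% to 52.5% in ∆UCS Kl/Kl males against 53.5% to 61.2% in ∆UCS control males, with no overlap, 40.2% to 55.8% in the kept Bmp2+/+ Kl/Kl males against 47.3% to 58.6% in their controls, and 44.9% to 54.8% in the kept Kl/Kl females against 52.2% to 60% in control females. Its part in the Klotho differences below was not tested. All 7 smooth muscle markers were in the table, and their summed level ran from 74.6 to 628 TPM over the 22 libraries. Summed markers of airway epithelium ran from 7.11 to 3670 TPM, of cardiomyocytes from 24.9 to 3900 TPM and of brown adipocytes from 247 to 1220 TPM, so markers of neighbouring tissues were present at uneven levels. All ∆UCS libraries belonged to 1 of 2 sets of library names and all female libraries to the other, so set and these groups cannot be told apart except through the Bmp2+/+ males, who were in both sets. Bmp2 itself was measured at 0.166 to 1.17 TPM and passed the test in 0 of 5 comparisons. Its log2 difference between ∆UCS and Bmp2+/+ males was 0.29 (SE 0.45) among Kl/Kl animals and -0.26 (SE 0.45) among controls. Kl, mainly a kidney gene, had 0 to 17 estimated reads in Kl/Kl aortas and 3 to 30 in control aortas, too few to check the genotype.

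The sequences just upstream of the gene start are shown for the 4 genes that formed the most tightly co-varying pairs described below, Fstl1 with Twsg1 and Sost with Fstl3. They come from RefSeq on GRCm38.p6, an older build than the mm39 used for the expression values, and 5 of the 9 genes matched that table. Capitals mark the GC box GGGCGG and the CCAAT box, each searched on both strands, so that CCGCCC and ATTGG are the same motifs on the other strand. The palindrome GGCGCC, which SMAD proteins of the BMP pathway bind, was searched as well and is in 0 of these 4 windows. The window of Grem1, the other gene that matched, is not shown and held 1 palindrome, 3 GC boxes and 1 CCAAT box. Each window is the 250 bases before the start, written 5′ to 3′ along the gene.
Fstl1, chr16:37776805-37777054 (plus strand): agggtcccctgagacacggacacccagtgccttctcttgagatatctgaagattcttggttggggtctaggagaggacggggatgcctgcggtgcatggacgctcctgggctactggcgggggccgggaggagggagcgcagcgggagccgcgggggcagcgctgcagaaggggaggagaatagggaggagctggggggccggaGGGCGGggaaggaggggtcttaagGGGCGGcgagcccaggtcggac
Twsg1, chr17:65951188-65951437 (minus strand): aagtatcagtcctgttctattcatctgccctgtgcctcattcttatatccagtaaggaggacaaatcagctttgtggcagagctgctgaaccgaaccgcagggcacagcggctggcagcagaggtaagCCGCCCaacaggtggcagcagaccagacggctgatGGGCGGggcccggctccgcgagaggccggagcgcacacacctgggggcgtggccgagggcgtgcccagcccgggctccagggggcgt
Sost, chr11:101967016-101967265 (minus strand): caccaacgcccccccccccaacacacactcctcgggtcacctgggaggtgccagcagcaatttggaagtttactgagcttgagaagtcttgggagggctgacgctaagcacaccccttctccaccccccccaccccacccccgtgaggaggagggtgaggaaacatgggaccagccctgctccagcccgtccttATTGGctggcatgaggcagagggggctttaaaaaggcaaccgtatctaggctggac
Fstl3, chr10:79777024-79777273 (plus strand): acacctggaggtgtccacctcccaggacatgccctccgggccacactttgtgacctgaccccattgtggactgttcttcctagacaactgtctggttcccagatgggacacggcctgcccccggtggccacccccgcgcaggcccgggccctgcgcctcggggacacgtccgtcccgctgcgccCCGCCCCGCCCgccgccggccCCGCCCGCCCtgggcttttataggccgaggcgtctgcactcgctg
Fstl1 and Twsg1 each held 2 GC boxes and no CCAAT box. Fstl3 held 4 GC boxes, 2 of which overlap a neighbour, and Sost held none and a single CCAAT box, 56 bases before the start. Among 32851 mouse promoter windows of this length, 32.7% held a GC box, 33.8% a CCAAT box and 9.59% the palindrome. Sost had 6 CpG dinucleotides, equal to the median of 6 over all windows, whereas Fstl1 and Twsg1 had 16 each and Fstl3 had 22. A match is a run of letters only. The rank correlation given below was 0.71 for Sost with Fstl3, whose windows differ in these motifs, and 0.74 for Fstl1 with Twsg1, whose windows have the same counts.

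Because the deposited TPM was scaled to the genomic span of a gene, levels of different genes were compared as RPKM over exons, that is estimated reads per kb of exon scaled to library depth. On that scale Fstl1 had the highest median over the 22 libraries at 73.3, followed by Sost at 26.6, Twsg1 at 20.1, Fstl3 at 6.47, Fst at 3.02, Chrdl1 at 2.87, Sostdc1 at 2.08, Grem1 at 1.44 and Nog at 0.336. The ranges over libraries overlapped between every pair of neighbours in this order, so no neighbours were separated by more than their spread. Fstl1 at 45.0 to 137 and Twsg1 at 12.9 to 28.7 did not overlap. Nog rested on 4 to 55 estimated reads per library, the thinnest evidence of the 9 genes, and Fstl1 on 5173 to 30342. The genes differed widely in how evenly they were expressed. The highest library was 3.27 times the lowest in TPM for Twsg1 and 3.41 times for Fstl1, against 33.0 times for Sost and 54.8 times for Grem1.

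**Figure D1:**
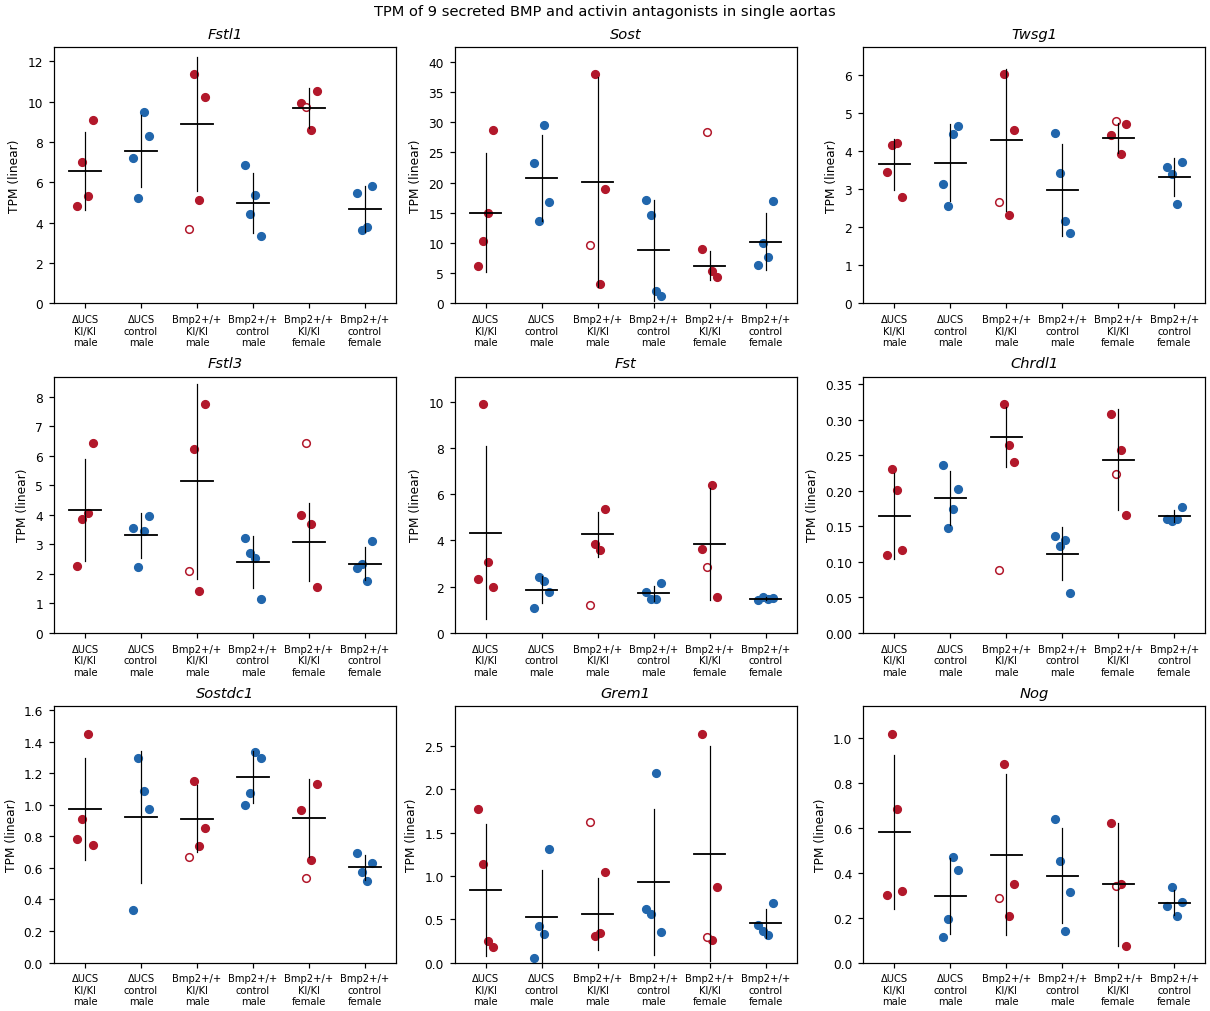
TPM (linear axes) of each antagonist in single aortas, by group, with the Kl/Kl group (red) left of its control group (blue). Horizontal lines are means and vertical lines SD over the 22 libraries, cut off at 0, and open circles are the 2 libraries left out. Fst lies between 3.58 and 5.36 TPM in the kept Bmp2+/+ Kl/Kl males and between 1.46 and 2.15 TPM in their controls, and Sost spans 1.15 to 37.9 TPM over the libraries kept.

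None of the 9 antagonists passed the test in any of the 5 comparisons (limma on log2(TPM + 0.1), Benjamini-Hochberg over 21248 genes, threshold 0.05). The background differed between comparisons. In ∆UCS against Bmp2+/+ males, 0% of all genes passed, both among Kl/Kl animals and among controls. In Kl/Kl against control animals, 0.527% of all genes passed in ∆UCS males, 0.701% in Bmp2+/+ males and 2.45% in Bmp2+/+ females, so a count of 0 of 9 is close to the background and is no result about the antagonists. With all 24 libraries as labelled 0 antagonists and 0% of genes passed in any of the 5 comparisons. With limma voom on estimated reads 0 antagonists passed in any of them, against 0% of all genes in both ∆UCS comparisons and, for Kl/Kl against control, 1.22% in ∆UCS males, 1.52% in Bmp2+/+ males and 3.24% in females. At an unadjusted p under 0.05 the count was 1 of 9 in each ∆UCS comparison, against 2.04% of all genes among Kl/Kl animals and 3.16% among controls. Among controls this count was 4 of 9 with median-of-ratios scaling, against 4.21% of all genes, and 3 of 9 with limma voom, against 6.17%. For Kl/Kl against control it was 1 of 9 in ∆UCS males, 3 of 9 in Bmp2+/+ males and 2 of 9 in Bmp2+/+ females, against 14.1%, 9.05% and 21.2% of all genes in that order of groups. Several antagonists vary together, so such counts are not counts of independent genes. Summed smooth muscle markers were at 270 to 430 TPM in ∆UCS control males against 74.6 to 299 TPM in Bmp2+/+ control males. Their rank correlation over 22 libraries was 0.84 with Sost, 0.77 with Fstl3 and 0.76 with Fstl1. The part of these markers in the counts among controls was not tested.

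In the deposited values whole profiles were shifted between groups, and the cause was not tested. The median log2 difference of all genes between Kl/Kl and control was 0.34 in ∆UCS males, 0.10 in Bmp2+/+ males and 0.40 in Bmp2+/+ females. That between ∆UCS and Bmp2+/+ males was 0.00 among Kl/Kl animals and -0.21 among controls. Against these, the median of the 9 antagonists between Kl/Kl and control was 0.15 in ∆UCS males, 0.75 in Bmp2+/+ males and 0.39 in Bmp2+/+ females. Between ∆UCS and Bmp2+/+ males the median of the 9 was -0.04 among Kl/Kl animals and 0.31 among controls. Median-of-ratios scaling, which centres most genes, put the median of the 9 between Kl/Kl and control at -0.11 in ∆UCS males, 0.57 in Bmp2+/+ males and 0.05 in females. Between ∆UCS and Bmp2+/+ males it put this median at 0.06 among Kl/Kl animals and 0.46 among controls. The medians of all genes were 0.08 and -0.05 in that order.

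**Figure D2:**
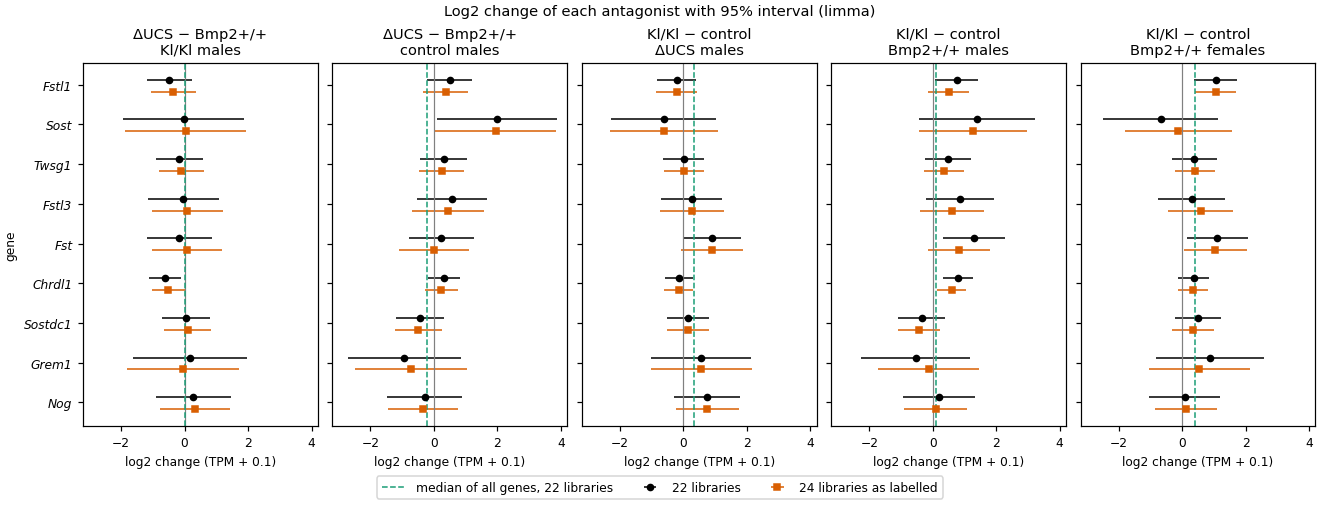
Log2 difference of each antagonist (x axis, on log2(TPM + 0.1)) with its 95% interval from limma in 5 comparisons, without the 2 libraries left out (black circles) and with all 24 as labelled (orange squares). The dashed line is the median of all genes tested, 0.40 in the female panel; the intervals are widest for Sost and Grem1, and the interval of Fst lies above 0 in all 3 Kl/Kl panels of the 22-library fit.

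Among the chordin, noggin and gremlin type antagonists, which bind BMPs directly, Chrdl1 gave the smallest unadjusted p of the 9 genes, without passing the test. Chrdl1 encodes a chordin-like BMP4 antagonist, at X:142068670-142177258 on the minus strand of mm39. It was measured at 0.110, 0.230, 0.201 and 0.117 TPM in ∆UCS Kl/Kl males, against 0.236, 0.148, 0.174 and 0.202 TPM in ∆UCS control males. Bmp2+/+ Kl/Kl males had 0.322, 0.264 and 0.240 TPM, against 0.136, 0.122, 0.131 and 0.0559 TPM in Bmp2+/+ control males, and the left-out male library had 0.0890 TPM. Every kept Bmp2+/+ Kl/Kl male therefore lay above every Bmp2+/+ control male, a separation that 5.06% of all genes showed upward, while the ∆UCS groups overlapped. Females had 0.307, 0.257 and 0.166 TPM when Kl/Kl and 0.158 to 0.177 TPM as controls, with 0.223 TPM in the left-out library, and overlapped.

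The Chrdl1 difference between Kl/Kl and control was 0.80 log2 units in Bmp2+/+ males (SE 0.23, adjusted p = 0.176), -0.15 in ∆UCS males (SE 0.21, adjusted p = 0.716) and 0.36 in Bmp2+/+ females (SE 0.23, adjusted p = 0.357). Its interaction, the difference in ∆UCS males less that in Bmp2+/+ males, was -0.95 (SE 0.31, 95% interval -1.60 to -0.29), with an unadjusted p of 0.00691 and an adjusted p of 0.978, in a comparison where 0% of all genes passed and 2.96% had an unadjusted p under 0.05. In set 1 alone this interaction was -0.90 (SE 0.46, adjusted p = 0.822), with all 24 libraries -0.75 (SE 0.32, adjusted p = 1), and with limma voom on estimated reads -1.77 (SE 0.43, adjusted p = 0.579). Seen the other way, all 4 ∆UCS Kl/Kl males were below all 3 kept Bmp2+/+ Kl/Kl males, a separation that 1.05% of all genes showed. All 4 ∆UCS control males were above all 4 Bmp2+/+ control males, which 0.296% of all genes showed. The log2 difference was -0.62 (SE 0.24, adjusted p = 1) among Kl/Kl animals and 0.33 (SE 0.24, adjusted p = 0.986) among controls. With all 24 libraries it was -0.52 (SE 0.25) among Kl/Kl animals, where the left-out library made the groups overlap. Since Chrdl1 lies near the pseudocount in TPM, these differences understate the change: with a pseudocount of 0.01 the value in Bmp2+/+ males was 1.21 (SE 0.35, adjusted p = 0.184).

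Chrdl1 ranked libraries most like Vnn1 (Spearman rho 0.86 over 22 libraries), Gnai1 (0.83) and Slc1a3 (0.82). With summed adipocyte markers its rho was 0.64 over 22 libraries, 0.66 within the 10 Kl/Kl libraries and 0.04 within the 12 control libraries. These markers, of which all 5 were measured, summed to 1310 to 2890 TPM in ∆UCS Kl/Kl males against 1620 to 2010 TPM in ∆UCS control males, and to 2070 to 2970 TPM in Bmp2+/+ Kl/Kl males against 1630 to 2260 TPM in Bmp2+/+ control males. Their part in the Chrdl1 difference was not tested. In bulk tissue, more cells of a type and more RNA per cell cannot be told apart.

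Grem1, which encodes gremlin 1, a binder of BMP2, BMP4 and BMP7, varied widely within groups. Of the 9 genes it had the largest ratio of the highest to the lowest library in TPM. It lies at 2:113576509-113588991 on the minus strand. It had 1.78, 1.14, 0.245 and 0.180 TPM in ∆UCS Kl/Kl males, against 0.0482, 0.422, 0.334 and 1.31 TPM in ∆UCS control males. Bmp2+/+ Kl/Kl males had 0.305, 0.344 and 1.04 TPM, against 0.622, 0.556, 2.18 and 0.356 TPM in Bmp2+/+ control males. Females had 2.64, 0.255 and 0.873 TPM when Kl/Kl, against 0.429, 0.369, 0.314 and 0.691 TPM as controls. High and low libraries occurred together in most groups, and all pairs of groups compared overlapped. The standard error of its log2 difference was 0.75 to 0.86, and the differences ran from -0.93 (95% interval -2.72 to 0.86) for ∆UCS against Bmp2+/+ control males to 0.88 (-0.82 to 2.58) for Kl/Kl against control females, so changes of several fold either way were within the intervals. Single libraries decided these values: that in control males was -0.02 without Bmp2+/+ control male replicate 3, -0.38 without ∆UCS control male replicate 1 and -1.46 without ∆UCS control male replicate 4. That in females was 0.14 without Kl/Kl female replicate 1 and 1.61 without Kl/Kl female replicate 3.

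The genes most like Grem1 in rank over the 22 libraries were the T cell receptor segments Trav4d-3 and Trav4n-3 (rho 0.85 for both) and Trav7-3 (0.84), in which some libraries were at the floor of the table. Near-identical segments of this kind may share reads. A list of 8 thymocyte markers, chosen after these values were seen, gave a rho of 0.66 over 22 libraries, 0.83 within the 10 Kl/Kl libraries and 0.55 within the 12 control libraries. Its summed level ran from 0.264 to 61.9 TPM in ∆UCS Kl/Kl males against 0.322 to 3.49 TPM in ∆UCS control males, from 0.239 to 1.58 TPM in Bmp2+/+ Kl/Kl males against 0.0857 to 47.0 TPM in their controls, and from 0.285 to 4.16 TPM in Kl/Kl females against 0.160 to 0.614 TPM in control females. The libraries with the 2 highest sums did not have the 2 highest Grem1 levels. The part of this tissue in the Grem1 level was not tested.

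Twsg1, whose product binds BMPs together with chordin, was the most even of the 9 genes. It lies at 17:66228967-66258221 on the minus strand. It averaged 3.66 ± 0.68 TPM in ∆UCS Kl/Kl males and 3.70 ± 1.02 TPM in ∆UCS control males (SD, n = 4 each). In Bmp2+/+ males it averaged 4.31 ± 1.87 TPM in Kl/Kl animals (SD, n = 3) and 2.98 ± 1.21 TPM in controls (SD, n = 4). The Kl/Kl females had 4.43, 3.94 and 4.72 TPM, against 3.58, 3.41, 2.60 and 3.72 TPM in control females. These female groups did not overlap, also with the left-out library at 4.79 TPM, but 27% of all genes were higher in Kl/Kl females without overlap, and 10.5% with all 24 libraries. The log2 difference in females was 0.39 (SE 0.33, adjusted p = 0.498), against a median of 0.40 over all genes, and -0.05 with median-of-ratios scaling. The gene most like Twsg1 was Sparcl1 (rho 0.92), followed by Spats2l and the BMP type I receptor gene Bmpr1a (0.89 each). Its rho with summed fibroblast markers was 0.72 over 22 libraries, 0.49 within the Kl/Kl libraries and 0.69 within the control libraries.

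Nog encodes noggin, the classical BMP trap, at 11:89191464-89193158 on the minus strand. It ranged from 0.299 to 1.02 TPM in ∆UCS Kl/Kl males, against 0.115 to 0.469 TPM in ∆UCS control males. Bmp2+/+ Kl/Kl males ranged from 0.205 to 0.885 TPM, against 0.141 to 0.641 TPM in their controls, and Kl/Kl females from 0.0735 to 0.622 TPM, against 0.206 to 0.338 TPM in control females. All groups overlapped at 4 to 55 reads per library. Its largest log2 difference was 0.75 for Kl/Kl against control in ∆UCS males (SE 0.49, 95% interval -0.28 to 1.79). Nog ranked libraries most like Fgfr1 (rho 0.88), Adssl1 (0.87) and Pacsin3 (0.87). Its rho was 0.73 with summed cartilage markers and 0.65 with summed skeletal muscle markers, and within the 10 Kl/Kl libraries these were 0.92 and 0.89, against 0.50 and 0.73 within the 12 controls. Cartilage markers summed to 4.19 to 33.2 TPM in ∆UCS Kl/Kl males against 0.717 to 15.4 TPM in ∆UCS control males, and their part in the Nog level was not tested.

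In the follistatin family, whose members bind activins and some BMPs, Fst averaged higher in Kl/Kl than in control aortas in all 3 strata but passed the test in none. Fst encodes the main activin-neutralising protein and lies at 13:114588826-114595487 on the minus strand. It had 2.35, 9.90, 3.09 and 2.00 TPM in ∆UCS Kl/Kl males, against 1.09, 2.40, 2.23 and 1.78 TPM in ∆UCS control males. Bmp2+/+ Kl/Kl males had 3.83, 3.58 and 5.36 TPM, against 1.76, 1.46, 1.48 and 2.15 TPM in Bmp2+/+ control males. Kl/Kl females had 3.61, 6.39 and 1.56 TPM, against 1.43, 1.54, 1.47 and 1.51 TPM in control females. The ∆UCS groups overlapped. The Bmp2+/+ groups did not, a separation that 5.06% of all genes showed upward in males and 27% in females, and in females the lowest Kl/Kl library was only just above the highest control.

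The log2 difference of Fst between Kl/Kl and control was 0.91 in ∆UCS males (SE 0.43, 95% interval 0.02 to 1.81, adjusted p = 0.348), 1.31 in Bmp2+/+ males (SE 0.47, 0.33 to 2.29, adjusted p = 0.344) and 1.11 in Bmp2+/+ females (SE 0.46, 0.14 to 2.08, adjusted p = 0.187). With all 24 libraries the male value was 0.83, because the left-out male library had 1.197 TPM and made the groups overlap, and the female value was 1.05. In ∆UCS males the difference was 0.42 without replicate 2, the library at 9.90 TPM, and in females it was 0.65 without replicate 3, the library at 6.39 TPM. With all 24 libraries the interval included 0 in ∆UCS males (-0.07 to 1.89) and in Bmp2+/+ males (-0.15 to 1.81). Under median-of-ratios scaling the difference was 0.63 in ∆UCS males (95% interval -0.21 to 1.46), 1.13 in Bmp2+/+ males (0.21 to 2.04) and 0.68 in females (-0.23 to 1.58). With limma voom the intervals likewise included 0 in ∆UCS males (-0.26 to 1.43) and in females (-0.33 to 1.57) but not in Bmp2+/+ males (0.23 to 2.17). In set 1 alone it was 1.15 (SE 0.65) in Bmp2+/+ males. ∆UCS and Bmp2+/+ males differed in Fst by -0.17 log2 units among Kl/Kl animals (95% interval -1.19 to 0.86) and by 0.23 among controls (-0.79 to 1.25).

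The gene most like Fst was Gpr19 (rho 0.87), with Id1, a direct target of BMP signalling (0.87), and Fosl2 (0.86) next. The rho of Fst with Id1 was 0.90 within the 10 Kl/Kl libraries and 0.63 within the 12 controls. Fst followed endothelial markers within both groups, with a rho of 0.92 within the Kl/Kl libraries and 0.85 within the controls, and 0.77 over all 22. The 7 endothelial markers summed to 15.0 to 66.9 TPM in ∆UCS Kl/Kl males against 23.1 to 51.1 TPM in ∆UCS control males, to 27.9 to 51.9 TPM in Bmp2+/+ Kl/Kl males against 24.8 to 35.0 TPM in their controls, and to 8.75 to 41.4 TPM in Kl/Kl females against 13.1 to 29.0 TPM in control females. Its rho with macrophage markers was 0.76 over 22 libraries but 0.41 within the Kl/Kl libraries and 0.39 within the controls. Macrophage markers themselves separated the groups, at 61.7 to 145 TPM in ∆UCS Kl/Kl males against 15.5 to 34.4 TPM in ∆UCS control males, 106 to 229 TPM in Bmp2+/+ Kl/Kl males against 13 to 48.4 TPM in their controls, and 145 to 216 TPM in Kl/Kl females against 13.1 to 18.8 TPM in control females. The part of these cells in the Fst difference was not tested.

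Fstl1 encodes a secreted glycoprotein of mesenchymal cells that binds BMP4, at 16:37597235-37656876 on the plus strand. It had 4.80, 7.002, 5.31 and 9.09 TPM in ∆UCS Kl/Kl males, against 7.22, 5.24, 9.46 and 8.29 TPM in ∆UCS control males. Bmp2+/+ Kl/Kl males had 11.3, 5.13 and 10.2 TPM, against 6.83, 4.40, 5.38 and 3.33 TPM in Bmp2+/+ control males. Kl/Kl females had 9.94, 8.57 and 10.5 TPM, against 5.48, 3.64, 3.78 and 5.83 TPM in control females. The female groups did not overlap, also with the left-out library at 9.75 TPM, a separation that 27% of all genes showed upward over the 22 libraries and 10.5% over all 24, while the male groups overlapped. The left-out male library was at 3.70 TPM.

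The log2 difference of Fstl1 between Kl/Kl and control was 1.06 in females (SE 0.32, 95% interval 0.39 to 1.73, adjusted p = 0.085), 0.75 in Bmp2+/+ males (SE 0.32, adjusted p = 0.476) and -0.21 in ∆UCS males (SE 0.29, adjusted p = 0.713). In females it stayed at 1.06 with all 24 libraries (adjusted p = 0.217), and passed the threshold in a fit of the 2 female groups alone (SE 0.23, adjusted p = 0.0476), in which 4.56% of all genes passed. It was 0.61 under median-of-ratios scaling (adjusted p = 0.288) and 0.55 with limma voom on estimated reads. The interaction of the Klotho difference with ∆UCS was -0.97 (SE 0.44, adjusted p = 0.978), and in set 1 alone -0.54 (SE 0.56). Fibroblast and smooth muscle markers stood beside this: the 7 markers summed to 111 to 156 TPM in Kl/Kl females against 49.7 to 76.4 TPM in control females, and the rho of Fstl1 with that sum was 0.85 over 22 libraries, 0.66 within the Kl/Kl libraries and 0.82 within the controls. With summed smooth muscle markers it was 0.76, 0.72 and 0.93 in the same order, and these summed to 201 to 280 TPM in Kl/Kl females against 147 to 280 TPM in control females. Their part in the Fstl1 difference was not tested. The genes most like Fstl1 were Pdgfrl (rho 0.93), Tspan2 (0.91) and Mfap5 (0.91).

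Fstl3 encodes a close relative of follistatin that binds activins and myostatin, at 10:79613106-79618464 on the plus strand. It ranged from 2.26 to 6.45 TPM in ∆UCS Kl/Kl males, against 2.22 to 3.97 TPM in ∆UCS control males, and from 1.43 to 7.76 TPM in Bmp2+/+ Kl/Kl males, against 1.15 to 3.22 TPM in their controls. In females the range was 1.56 to 3.99 TPM in Kl/Kl animals, against 1.76 to 3.13 TPM in controls. All groups overlapped, and the largest log2 difference was 0.87 for Kl/Kl against control in Bmp2+/+ males (SE 0.51, 95% interval -0.20 to 1.93), which was 0.07 in set 1 alone (SE 0.63). Fstl3 followed the prostacyclin synthase gene Ptgis almost rank for rank (rho 0.97 over 22 libraries), with Rbpms (0.93) and Fam124a (0.92) next.

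Sost, the sclerostin gene, was the most abundant of the 9 antagonists after Fstl1 per length of exon, and among the most uneven. It lies at 11:101853284-101857841 on the minus strand. It had 6.21, 10.3, 14.9 and 28.7 TPM in ∆UCS Kl/Kl males, against 23.2, 13.7, 29.6 and 16.7 TPM in ∆UCS control males. Bmp2+/+ Kl/Kl males had 37.9, 3.15 and 19.0 TPM, against 17.2, 14.7, 1.97 and 1.15 TPM in Bmp2+/+ control males. Kl/Kl females had 8.96, 5.28 and 4.38 TPM, against 6.36, 9.94, 7.67 and 16.9 TPM in control females. In the Bmp2+/+ control males a pair of libraries lay well below the other pair, and all the groups compared overlapped. The left-out libraries had 9.72 TPM (male) and 28.4 TPM (female).

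The largest Sost difference was that between ∆UCS and Bmp2+/+ control males, 1.99 log2 units (SE 0.91, 95% interval 0.09 to 3.89, unadjusted p = 0.041, adjusted p = 0.986). It was 1.74 in set 1 alone (SE 0.97), 1.14 without Bmp2+/+ control male replicate 3 and 3.18 without Bmp2+/+ control male replicate 1. Among Kl/Kl animals the same difference was -0.03 (SE 0.91). Between Kl/Kl and control it was -0.62 in ∆UCS males (SE 0.80), 1.40 in Bmp2+/+ males (SE 0.87) and -0.68 in females (SE 0.86), and with all 24 libraries the female value was -0.12. Each of these intervals included both an increase and a decrease. The interaction with ∆UCS was -2.02 (SE 1.18, adjusted p = 0.978) and that with sex -2.07 (SE 1.22, adjusted p = 0.981).

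The level of Sost went with smooth muscle markers, with a rho of 0.84 over the 22 libraries, 0.78 within the 10 Kl/Kl libraries and 0.89 within the 12 controls. Those markers summed to 175 to 549 TPM in ∆UCS Kl/Kl males against 270 to 430 TPM in ∆UCS control males, to 115 to 628 TPM in Bmp2+/+ Kl/Kl males against 74.6 to 299 TPM in their controls, and to 201 to 280 TPM in Kl/Kl females against 147 to 280 TPM in control females. The most similar genes were Efhd1 (rho 0.94), Npnt (0.93), which encodes the matrix protein nephronectin, and Susd5 (0.92). With the 7 bone markers summed, the rho of Sost was 0.17 over 22 libraries, 0.85 within the 10 Kl/Kl libraries and -0.22 within the 12 controls. The bone markers summed to 2.29 to 7.58 TPM in ∆UCS Kl/Kl males against 0.176 to 0.973 TPM in ∆UCS control males, to 0.741 to 8.93 TPM in Bmp2+/+ Kl/Kl males against 0.23 to 1.72 TPM in their controls, and to 0.827 to 8.07 TPM in Kl/Kl females against 0.25 to 1.9 TPM in control females. The part of either set of markers in the Sost level was not tested.

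**Figure D3:**
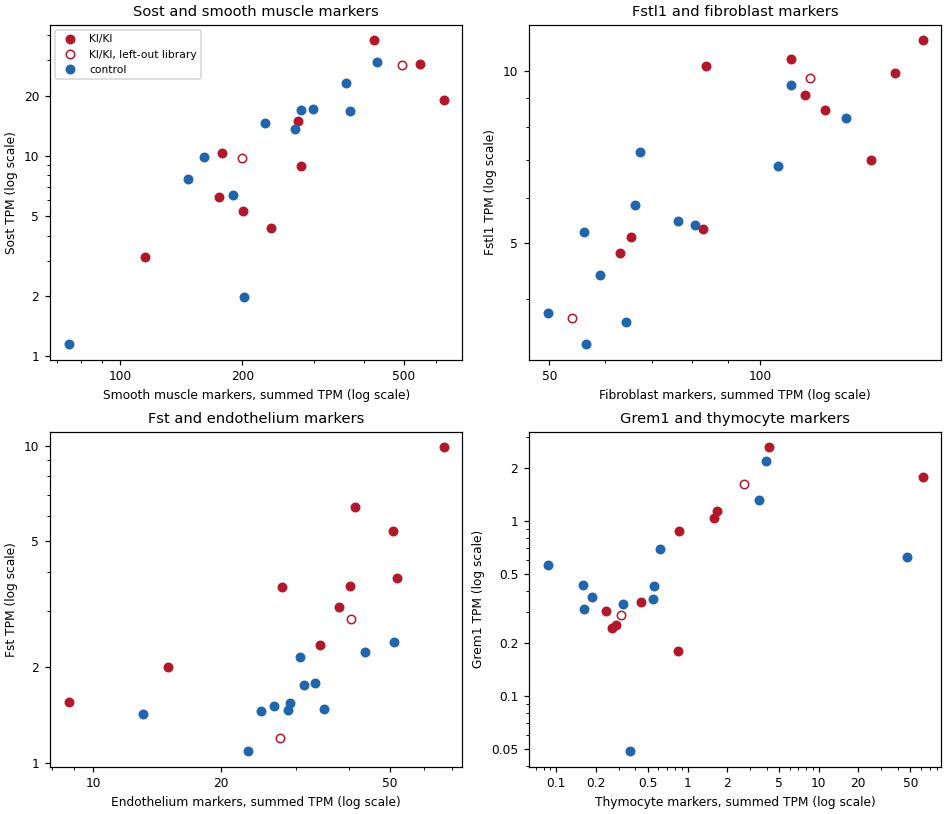
TPM of 4 antagonists against the summed TPM of a marker list in the same library (both axes on a log scale), with Kl/Kl libraries in red, control libraries in blue and the 2 left-out libraries as open circles. Sost follows smooth muscle markers (rho 0.84 over 22 libraries), Fstl1 fibroblast markers (0.85) and Fst endothelial markers (0.77). Grem1 loosely follows thymocyte markers (0.66), a list chosen after the Grem1 values were seen.

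Sostdc1 encodes a relative of sclerostin, also known as ectodin, which binds BMPs and the Wnt co-receptor LRP6. It lies at 12:36364138-36368451 on the plus strand. It averaged 0.97 ± 0.33 TPM in ∆UCS Kl/Kl males and 0.92 ± 0.41 TPM in ∆UCS control males (SD, n = 4 each). In Bmp2+/+ males it averaged 0.91 ± 0.21 TPM in Kl/Kl animals (SD, n = 3) and 1.17 ± 0.16 TPM in controls (SD, n = 4), and in females 0.91 ± 0.25 TPM in Kl/Kl animals (SD, n = 3) and 0.60 ± 0.08 TPM in controls (SD, n = 4). The groups compared overlapped, and its differences lay between -0.45 and 0.51 log2 units with standard errors of 0.32 to 0.36. Its closest genes were Htr3a (rho 0.75), Gpr37l1 (0.71) and Nap1l2 (0.70), the loosest likeness among the 9.

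Between the 9 antagonists themselves, the closest pairs over the 22 libraries were Fstl1 with Twsg1 (rho 0.74), Sost with Fstl3 (0.71) and Fstl1 with Fstl3 (0.65). Within the 10 Kl/Kl libraries the rho of Sost with Fstl3 was 0.93 and that of Fstl1 with Twsg1 0.81, and within the 12 controls these were 0.84 and 0.71. Sost and Fstl3 shared their link with smooth muscle markers, for which the rho of Fstl3 was 0.77 over 22 libraries, 0.90 within the Kl/Kl libraries and 0.92 within the controls. The lowest value was -0.31, for Grem1 with Sost. Points of 1 library share its depth and its mix of tissue, so these values describe the libraries and carry no p.

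**Figure D4:**
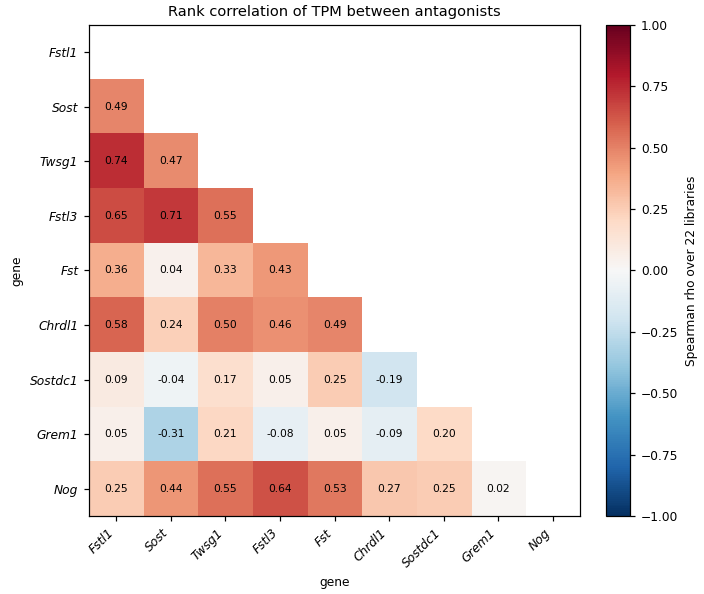
Spearman rank correlation of TPM between each pair of the 9 antagonists (both axes list the genes) over 22 libraries, on a colour scale from -1 to 1. The darkest squares are Fstl1 with Twsg1 (0.74) and Sost with Fstl3 (0.71), and Grem1 and Sostdc1 are pale against every other gene.

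The rest of the pathway was followed through lists of other genes. Of 16 other secreted antagonists 15 were in the table and 10 were tested, and 0 passed in any of the 5 comparisons (limma on log2(TPM + 0.1)). The same held, with this test, for the 3 chordin-cleaving proteases (1 tested) and for 14 receptors and co-receptors (11 tested). It also held for 17 Wnt pathway genes (17 tested), namely partners of sclerostin, Wnt antagonists and Wnt targets. With limma voom on estimated reads, which tested more of these genes, 1 of 15 genes of the antagonist list and 1 of 17 Wnt genes passed. Of all genes, 1.22% passed limma voom for Kl/Kl against control in ∆UCS males, 1.52% in Bmp2+/+ males and 3.24% in females. Kcp, a secreted protein of the chordin type, was lower in Kl/Kl than in control aortas by this test in ∆UCS males (log2 difference -1.70, SE 0.40, adjusted p = 0.0382) and in Bmp2+/+ females (-1.73, SE 0.46, adjusted p = 0.0467), and in Bmp2+/+ males it did not pass (-1.80, SE 0.46, adjusted p = 0.0572). The action of Kcp on BMPs was not measured. Frzb, which encodes a secreted Wnt antagonist, was higher by this test in Bmp2+/+ Kl/Kl males (2.21, SE 0.48, adjusted p = 0.0193). On log2(TPM + 0.1) the differences were -0.69 and -0.58 for Kcp in ∆UCS males and in females (adjusted p = 0.263 and 0.254) and 1.69 for Frzb in Bmp2+/+ males (adjusted p = 0.189). With all 24 libraries they were -0.69, -0.43 and 1.35 in that order (limma, adjusted p = 0.34, 0.457 and 0.769). Frzb overlapped, at 0.256 to 1.37 TPM in kept Bmp2+/+ Kl/Kl males against 0.0701 to 0.294 TPM in their controls. Kcp overlapped in females, at 0.0384 to 0.0909 against 0.0529 to 0.204 TPM. In ∆UCS males Kcp was at 0.0497 to 0.107 against 0.164 to 0.199 TPM.

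Of 20 BMP and activin ligands, 14 were tested, 0 passed between ∆UCS and Bmp2+/+ males and 1, Gdf3, passed in each Klotho comparison. Of all genes, 0.527% passed for Kl/Kl against control in ∆UCS males, 0.701% in Bmp2+/+ males and 2.45% in females. Gdf3 reached the minimum of 0.1 TPM only in Kl/Kl libraries, and every control library was at 0.0254 TPM or less. It therefore entered the test only through the animals in which it is high. Gdf3, a ligand of the family that can also hold back BMPs, was higher in Kl/Kl than in control aortas by 1.19 log2 units in ∆UCS males (SE 0.25, adjusted p = 0.0358), 1.79 in Bmp2+/+ males (SE 0.28, adjusted p = 0.00159) and 1.75 in females (SE 0.27, adjusted p = 7.88e-04). It had 16 to 44 estimated reads in ∆UCS Kl/Kl males against 0 to 3 in ∆UCS control males, 36 to 54 in Bmp2+/+ Kl/Kl males against 2 to 4 in their controls, and 28 to 94 in Kl/Kl females against 1 to 3 in control females. At so few reads the pseudocount understates the change: with limma voom on estimated reads the differences were 3.91 in ∆UCS males (SE 0.56, adjusted p = 0.00102), 3.70 in Bmp2+/+ males (SE 0.50, adjusted p = 2.08e-04) and 3.73 in females (SE 0.50, adjusted p = 1.31e-04). With all 24 libraries Gdf3 did not pass, at 1.19 in ∆UCS males (adjusted p = 0.253), 1.32 in Bmp2+/+ males (adjusted p = 0.685) and 1.28 in females (adjusted p = 0.282), each with a standard error of 0.42. The macrophage markers given above separate the same groups, and their part in the Gdf3 difference was not tested.

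Of 10 target genes of BMP signalling, 9 were tested, and 1 passed in 1 of the 5 comparisons, that in females, in which 2.45% of all genes passed. Id2, an inhibitor of basic helix-loop-helix factors, passed in females, at 19.7 to 25.1 TPM in Kl/Kl against 5.42 to 10.3 TPM in control animals (log2 difference 1.44, SE 0.32, adjusted p = 0.0207). It did not pass in ∆UCS males (0.84, SE 0.30, adjusted p = 0.222) or in Bmp2+/+ males (1.05, SE 0.33, adjusted p = 0.23), nor in females with all 24 libraries (1.11, adjusted p = 0.248) or with limma voom (0.90, adjusted p = 0.14). With limma after median-of-ratios scaling Id2 passed in females (0.99, SE 0.25, adjusted p = 0.0426). Id1, the gene that Fst resembled, differed by 0.53 log2 units in ∆UCS males (SE 0.28), 0.94 in Bmp2+/+ males (SE 0.30) and 0.60 in females (SE 0.30) and passed in none. The median log2 difference of the 9 tested targets between Kl/Kl and control was 0.53 in ∆UCS males, 0.41 in Bmp2+/+ males and 0.60 in females, beside medians of 0.34, 0.10 and 0.40 over all genes in that order of groups.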

How the data were processed

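Values were deposited as TPM. The authors used Partek and the mm39 build, as listed per the submitters' processing notes. Which aligner and gene models they used, how multi-mapping reads were counted and whether strand was used is not given in the sources used here. Per the labels' protocols, RNA came from flash-frozen aortas (miRNeasy kit) and libraries from a directional kit. The median sum of a TPM column was 482073, and the values are scaled to the genomic span of a gene, introns included, with 0.0001 read added, so TPM compares a gene between libraries only. Reads were estimated from that floor: 76.9% of 172409 values between 0.5 and 20 reads came out within 0.05 of a whole number for genes that show the floor, and 73% over all genes. Unused columns: 0. Identical library pairs: 0. The labels give each animal's sex, genotypes and age, but not litter or batch, and p-values measure the spread between these samples.

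The test, on log2(TPM + 0.1), took genes reaching a TPM of 0.1 in 4 or more samples. It was made with limma 3.58.1 (lmFit, eBayes with a trend) in R 4.3.3, on 6 group means and the library set, with the set inferred from the spelling of library names. All 9 antagonists passed this filter, which is lower than a TPM of 1 because a gene of long span has a low TPM. Tests are two-sided, adjusted by Benjamini-Hochberg over all genes, with a threshold of 0.05. Exon lengths came from an older mouse annotation (GRCm38), and promoter windows from RefSeq (GRCm38.p6). Correlations, windows and figures were made in Python 3.11.15 with pandas 2.3.3, scipy 1.17.1 and matplotlib 3.10.9. Named genes were all 9 antagonists, Bmp2, Kl and Spp1, up to 3 passing genes of each pathway list in each comparison, and the 3 genes most like each antagonist by Spearman's rho. The code was tested on simulated data for Kl/Kl against control in Bmp2+/+ males, with the spread taken from control libraries. The fit recovered 24 of 100 genes changed 2-fold and 94 of 100 changed 4-fold, and called 7 unchanged genes. Genes with few reads were not among those changed. The antagonists, the lists and the 2 libraries left out were chosen with earlier results of these data known.

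Alternatives were all 24 libraries, pseudocounts of 1 and 0.01, a TPM of at least 1, no filter, median-of-ratios scaling, limma voom on estimated reads (at least 10 reads in at least 4 samples), no library set, age, a replicate block, the compared groups alone, set 1 by itself, and each replicate left out in turn. The pseudocount of 0.01 and the thymocyte list were chosen after seeing the data.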

Additional observations from a re-analysis of the deposited data

Results flagged for a closer look

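In the 36 sets of 4 libraries tested (the 4 groups with no library left out, for each of 9 genes), 3 held a library far from the other 3 of its group. Chance flags about 1 in 20 such sets. Grem1 was at 2.18 TPM in Bmp2+/+ control male replicate 3, Chrdl1 at 0.177 TPM in Bmp2+/+ control female replicate 4, and Fst at 9.90 TPM in ∆UCS Kl/Kl male replicate 2. In the Chrdl1 case the whole group spans only 0.158 to 0.177 TPM. The Fst library also had the highest sum of endothelial markers, 66.9 TPM, and of cartilage markers, 33.2 TPM, of the 4 ∆UCS Kl/Kl males.

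The ∆UCS difference in Chrdl1 ran in opposite directions in Kl/Kl and control males, with every ∆UCS Kl/Kl male below and every ∆UCS control male above the matching Bmp2+/+ males that were kept. The tested interaction was -0.95 log2 units (unadjusted p = 0.00691, adjusted p = 0.978 with limma over all genes) and does not pass the correction.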

How the results depend on the processing

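The count of antagonists past the threshold was 0 in all 5 comparisons and both interactions under every alternative run, with 1 exception: a fit of the 2 female groups alone gave 1 (Fstl1, log2 difference 1.06, adjusted p = 0.0476). Leaving out each library in turn gave 0 in every case, and the replicate block gave 0 in all 7. Replicate numbers gave no sign of pairs: deviations of same-numbered libraries correlated at -0.42 to 0.31, and in no comparison were all pairs over 0.1. Pairs of another kind, such as Kl/Kl and control animals of the same age or litter, were not checked. Of the log2 differences of single antagonists under the alternatives, 904 moved by less than the spread between replicates, 39 moved by more and 1 passed the threshold. Library set 1 alone gives no female comparison, and a TPM of at least 1 leaves the lowest antagonists out. Leaving out 1 library moved the Sost difference between ∆UCS and Bmp2+/+ Kl/Kl males between -1.38 and 0.99. The same step in control males gave ∆UCS differences of 0.37 to 0.75 for Fstl1, 0.40 to 0.94 for Fstl3 and 0.05 to 0.72 for Twsg1. In Kl/Kl males it gave -1 to -0.24 for Fstl1, -0.99 to 0.38 for Fstl3 and -0.69 to 0.20 for Twsg1. Median-of-ratios scaling changed the sign of the Kl/Kl differences of Twsg1, Fstl3 and Nog in females (to -0.05, -0.14 and -0.27) and of Twsg1, Fstl3 and Sostdc1 in ∆UCS males (to -0.28, -0.03 and -0.11), none of which passed in either fit. With limma voom 6 of 9 Kl/Kl differences were negative in ∆UCS males and 6 of 9 in females, against 3 and 1 in the fit on log2(TPM + 0.1). With 3 or 4 animals a group and standard errors of 0.21 to 1.22, differences of the size seen here could not be told from 0 for most of the 9 genes, and Nog, at 4 to 55 reads, is also limited by counting. Differences of low-TPM genes such as Chrdl1 grow with a smaller pseudocount. The causes were not tested.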
